A study of Caenorhabditis elegans with 2 samples.

Results

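The rpl and rla genes of Caenorhabditis elegans encode the proteins of the large subunit of the cytosolic ribosome. They were taken as all nuclear protein-coding genes of WBcel235 whose symbol begins with rpl- or rla-, which gave 50 genes of 19973, 47 named rpl and 3 named rla. The rule follows the symbol, so it includes rpl-24.2, whose product resembles the assembly factor that yeast cells call Rlp24, and leaves out ubq-2, which encodes a ubiquitin fused to a large-subunit protein. What was measured is where ZFP-2, a C2H2 zinc finger protein, was found along the chromosomes by chromatin immunoprecipitation and sequencing (ChIP-seq). Both libraries came from strain OP534, with the genotype unc-119(tm4063) III; wgIs534, in which a transgene makes ZFP-2 with GFP and FLAG at its C terminus. Hermaphrodites were synchronized by bleaching and starvation as L1 larvae, collected 52 hours later as L4 larvae, sonicated and precipitated with an antibody against GFP. Labelled as biological replicates 1 and 2, the libraries form 1 group, and no contrast between conditions exists. The animals were used whole, so the tissue in which a gene was occupied cannot be told, and the fusion protein, rather than the untagged protein, is what was mapped. Control data that the labels name were not used here.

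The large subunit joins amino acids at the peptidyl transferase centre and passes the new chain out through an exit tunnel. A flexible stalk on its side, built from the P proteins P0, P1 and P2 on a base to which RPL-12 also belongs, recruits translation factors, and RPL-5 and RPL-11 carry the 5S ribosomal RNA. Cells need these proteins in matched amounts, and their genes are among the most actively transcribed of growing larvae. Many worm mRNAs receive a spliced leader by trans-splicing, so an annotated 5′ end can lie downstream of the place where transcription starts.

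The authors deposited peak lists, with a signal and a summit for each peak. There were 18200 peaks for replicate 1 and 17770 for replicate 2, background calls among them, and 14658 in the pooled list, while the thresholded list, made by comparing replicates, held 660, of which 642 were nuclear. All 660 were the pooled list's strongest. The signal is the authors' value and ranks peaks within a list. It ran from 83.8 in the weakest thresholded peak to 4889 in the strongest nuclear one, with a median of 117. A gene is called bound where a thresholded summit lay between 1000 bp upstream and 200 bp downstream of 1 of its annotated 5′ ends. A gene's signal in a list is that of the strongest summit in this window, so the lists can give different summits for a gene. Read depth is unknown, and the lists carry no error on a single signal other than the difference between replicates.

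ZFP-2 was bound at 22 of the 50 large-subunit genes (44.0%, exact 95% interval 30.0 to 58.7). Over all 19973 coding genes the share was 2.79%. All 22 were rpl genes, and 0 of the 3 rla genes, which encode the stalk proteins P0, P1 and P2, were bound, a count that allows a share of up to 70.8% by the exact 95% interval. In the complete pooled list, which holds background calls, 43 of the 50 genes (86.0%) had at least 1 summit in the window, as did 25.4% of all coding genes. Each replicate gave nearly the same share by itself. Among its 660 strongest peaks, replicate 1 had summits at 23 members (46.0%, against 2.81% of all genes) and replicate 2 at 21 (42.0%, against 2.74%). When each peak was given only to the coding gene with the nearest 5′ end, 15 members (30.0%) stayed bound, against 1.91% of all genes. These shares are counts of genes and carry no test, since the genes were chosen with earlier results of these data known.

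**Figure D1:**
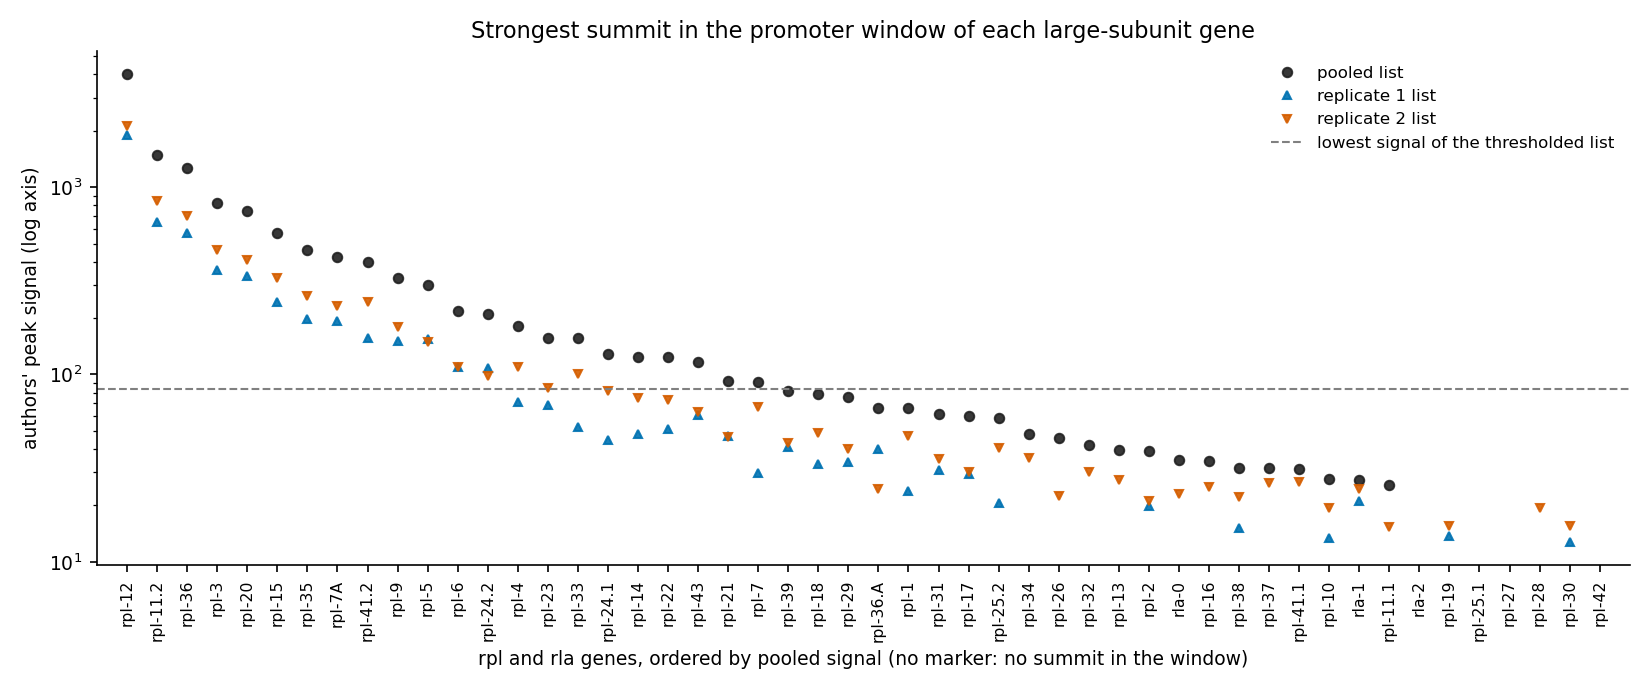
Authors' peak signal (log axis) of the strongest summit in the promoter window of each of the 50 rpl and rla genes, in the pooled list (circles) and in the replicate 1 and replicate 2 lists (triangles); the dashed line is the lowest signal of the thresholded list, 83.8. Signal falls from 4010.2 at rpl-12 to 25.6 at rpl-11.1, and 7 genes have no pooled summit.

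The strongest sites stood at genes for proteins from different places in the subunit, and the DNA under their summits is shown because these peaks dominate the member signal. Each sequence is cut around the thresholded summit, stops where an annotated exon begins, and reads 5′ to 3′ on the strand of the rpl gene. Coordinates and letters are from the RefSeq sequence of WBcel235, which is the ce11 sequence of the peak lists. Capitals mark 3 short words, each on either strand, that are counted further on: the word ACGCAG, which reads CTGCGT on the opposite strand, the word ACCGTA, which reads TACGGT there, and the word ACACTCG, which reads CGAGTGT there. The intervals are chrIV:13240652-13240733 (minus strand) for rpl-12, chrX:2242948-2243048 (minus) for rpl-11.2, chrIII:7179798-7179898 (plus) for rpl-36, chrIII:3867525-3867625 (plus) for rpl-3, chrIV:4750027-4750127 (minus) for rpl-20 and chrIV:654870-654970 (minus) for rpl-15.
rpl-12: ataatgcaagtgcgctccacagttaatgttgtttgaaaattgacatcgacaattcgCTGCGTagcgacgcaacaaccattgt
rpl-11.2: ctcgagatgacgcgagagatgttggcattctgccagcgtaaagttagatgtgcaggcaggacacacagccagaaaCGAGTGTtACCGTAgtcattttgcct
rpl-36: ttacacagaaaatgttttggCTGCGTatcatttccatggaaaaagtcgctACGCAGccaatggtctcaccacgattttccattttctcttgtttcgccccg
rpl-3: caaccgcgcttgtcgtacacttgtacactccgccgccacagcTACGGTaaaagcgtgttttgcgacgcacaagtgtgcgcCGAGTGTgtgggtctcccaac
rpl-20: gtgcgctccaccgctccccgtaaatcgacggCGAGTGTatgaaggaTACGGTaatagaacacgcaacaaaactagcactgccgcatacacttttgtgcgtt
rpl-15: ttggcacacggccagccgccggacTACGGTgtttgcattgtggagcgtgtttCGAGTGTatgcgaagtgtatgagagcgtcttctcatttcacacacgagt

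Among the genes of the stalk, rpl-12 was bound and the 3 P protein genes were not. The rpl-12 summit had a signal of 4010.2 in the pooled list, 1906 in replicate 1 and 2126 in replicate 2. That placed it at rank 5 of the pooled list, rank 4 of replicate 1 and rank 5 of replicate 2, above every other large-subunit gene in all 3 lists. The peak ran over chrIV:13240391-13240939, and its summit lay 32 bp upstream of an annotated rpl-12 5′ end, the shortest such distance of the 22. RPL-12 is also known in worms for an alternatively spliced transcript that nonsense-mediated decay removes. The gene for P0, rla-0, had a pooled signal of 34.8 (rank 5754), a signal of 23.0 in replicate 2 and no summit in replicate 1. Its pooled and replicate 2 summits were at different places, -309 and -968 bp from the 5′ end. P1's gene, rla-1, had a pooled signal of 27.4 (rank 11684), with 21.2 in replicate 1 and 24.4 in replicate 2. Those rla-1 summits were also at different places: -768 bp (pooled), -961 bp (replicate 1) and -633 bp (replicate 2). No list held a summit in the window of rla-2, the gene for P2. The rla signals are thus below the thresholded minimum of 83.8 and stand among ranks where the lists hold background calls.

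The genes for the proteins that hold the 5S ribosomal RNA were bound at rpl-5 and at 1 of the 2 rpl-11 genes. At rpl-11.2 the pooled signal was 1485 (rank 27), with 654 in replicate 1 (rank 30) and 839 in replicate 2 (rank 24). Its paralogue rpl-11.1 had a pooled signal of 25.6 (rank 13902), with 15.3 in replicate 2 and no summit in replicate 1. The rpl-11.1 summits lay 50 bp (pooled) and 178 bp (replicate 2) downstream of a 5′ end. Within each list that held both genes, rpl-11.2 therefore ranked far above rpl-11.1. The rpl-11.2 peak, chrX:2242785-2243233, lay in the window of no other coding gene, and 2 noncoding genes, AH9.7 and linc-78, lay within 250 bp of its summit. The rpl-5 signal was 299 in the pooled list, 154 in replicate 1 and 149.9 in replicate 2.

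Genes for proteins at the catalytic centre and along the tunnel were divided. RPL-3 reaches close to the peptidyl transferase centre, and its gene had a signal of 822 in the pooled list (rank 41), 359.9 in replicate 1 (rank 43) and 459.8 in replicate 2 (rank 35). The peak at rpl-3, chrIII:3867404-3867743, was in no other coding gene's window. RPL-4 extends a loop into the exit tunnel, and rpl-4 had a signal of 182 in the pooled list, 71.1 in replicate 1 and 109 in replicate 2. Both genes were among the 660 strongest peaks of each replicate. For rpl-35, whose product lies by the tunnel exit, the signal was 459.6 in the pooled list (rank 55), 198 in replicate 1 (rank 59) and 261 in replicate 2 (rank 50). The tunnel protein gene rpl-39 was the unbound member with the highest pooled signal, 81.7 at rank 697, with 41.0 in replicate 1 and 42.8 in replicate 2. It missed the thresholded list by a small margin: the weakest bound member, rpl-7, had 90.9. The windows of rpl-17 and rpl-2, for another tunnel protein and a core protein near the catalytic centre, held pooled signals of 59.7 and 38.8. At rpl-10, whose product joins the particle late in its assembly in yeast, the pooled signal was 27.6.

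Several other genes with strong peaks encode proteins that bind ribosomal RNA and help it fold. The peak of rpl-36 had a signal of 1266 in the pooled list (rank 34), 569 in replicate 1 (rank 34) and 698 in replicate 2 (rank 30). At rpl-20 the signal was 747 in the pooled list (rank 43), 334 in replicate 1 (rank 46) and 409 in replicate 2 (rank 38). The rpl-15 signal was 567 in the pooled list (rank 50), 243 in replicate 1 (rank 54) and 326 in replicate 2 (rank 44). Ranks for these 3 genes thus differed by at most 10 places between the replicates. For rpl-7A the signal was 422 in the pooled list, 193 in replicate 1 and 231 in replicate 2, and for rpl-9 it was 329, 151 and 179. The summit of rpl-7A lay 75 bp upstream of its 5′ end and that of rpl-9 245 bp upstream.

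Paralogues with the same number showed both patterns. Both rpl-24 genes were bound: rpl-24.2 had a signal of 209.9 in the pooled list, 108 in replicate 1 and 98.2 in replicate 2, and rpl-24.1 had 128, 44.9 and 81.9. The rpl-24.2 summit lay in an intron of the overlapping gene C03D6.1, the only bound member with a summit outside intergenic sequence. For the pair rpl-41.1 and rpl-41.2, which lie in tandem 699 bp apart on the same strand, the downstream gene rpl-41.2 was bound with 400.3 in the pooled list (rank 63), 156 in replicate 1 (rank 75) and 244 in replicate 2 (rank 53). The summit stood between the genes, 255 bp upstream of rpl-41.2. At rpl-41.1 the pooled signal was 31.2, with 26.8 in replicate 2 and no summit in replicate 1. Neither rpl-25 gene was bound, with a pooled signal of 58.2 at rpl-25.2 and no summit in any list at rpl-25.1. How reads that match more than 1 place were treated is not given in the sources used here, which matters for near-identical copies.

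At the lower edge of the bound genes, rpl-43 had a signal of 116 in the pooled list, rpl-21 had 92.4 and rpl-7 had 90.9. In replicate 1 these 3 genes had signals of 60.7, 46.8 and 29.6, and in replicate 2 they had 62.8, 46.4 and 66.8. Just outside stood rpl-39 with a pooled signal of 81.7, rpl-18 with 78.8 and rpl-29 with 75.5, so the signal stepped down gradually across the threshold. Both rpl-18 and rpl-29 had summits in each replicate, with signals of 33.2 and 34.1 in replicate 1 and 48.5 and 39.9 in replicate 2. Of the 28 unbound members, 21 had a summit in the pooled list, with signals from 25.6 to 81.7. The other 7 were rpl-19, rpl-25.1, rpl-27, rpl-28, rpl-30, rpl-42 and rla-2, and for 4 of them, rpl-25.1, rpl-27, rpl-42 and rla-2, no list held a summit. In both replicate lists, 14 of the 28 unbound members had a summit, and 10 had one in replicate 2 only and 0 in replicate 1 only. The same shares over all coding genes are not given here, so these counts are not read as particular to the members. These counts take any summit in the window, and the replicate summits were not required to match. The strongest lay at -359 and -370 bp at rpl-36.A, but at -961 and -633 bp at rla-1.

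The replicates placed the bound summits at nearly the same base. For all 22, each full replicate list held a summit no more than 100 bp away, against 585 of the other 620 nuclear thresholded peaks (94.4%). The 2 replicate summits lay a median of 9 bp apart, from 1 bp at rpl-21 to 51 bp at rpl-23, and 18 of 22 pairs were within 20 bp. Among the 660 strongest peaks of both replicates, 20 of the 22 were present. The thresholded list was made by comparing these replicates, so agreement between them was partly selected for. The distances between replicate summits are not given here for other thresholded peaks. The exceptions were rpl-7, at rank 1230 in replicate 1 and 330 in replicate 2, and rpl-21, at rank 430 in replicate 1 and 773 in replicate 2. Spearman's rho of the signal in replicate 1 and replicate 2 was 0.960 across these 22 genes, which were selected by the pooled signal of the same libraries, so it describes their order and has no p.

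**Figure D2:**
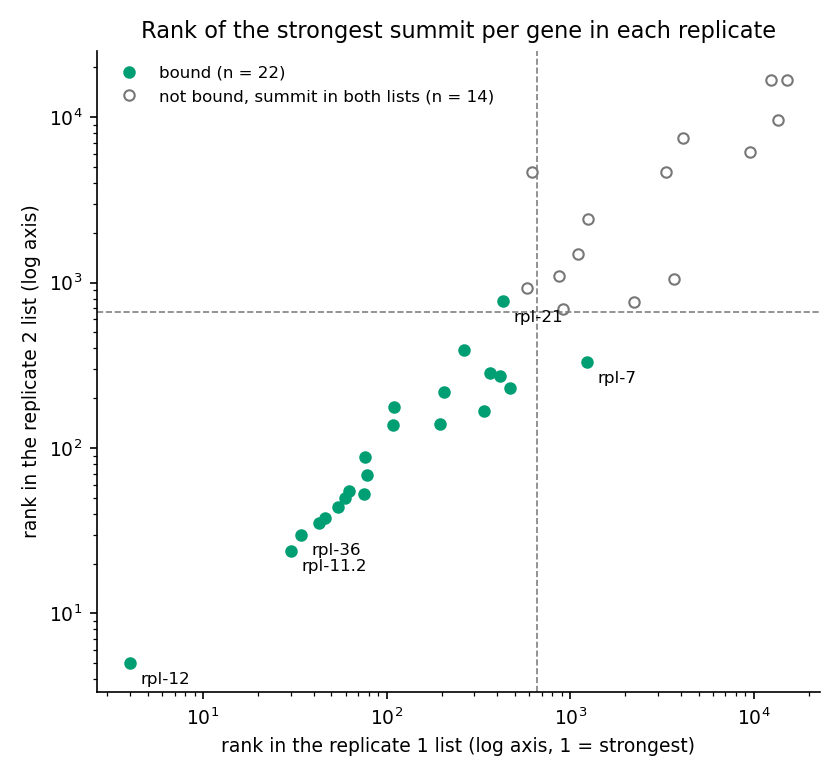
Rank of the strongest summit in the window of each rpl or rla gene in the replicate 1 list (x, log axis) and the replicate 2 list (y, log axis), with 22 bound genes filled and 14 unbound genes with a summit in both lists open; dashed lines mark rank 660. Of the bound genes, 20 lie inside both lines, and rpl-7 and rpl-21 lie outside 1 of them.

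Summits at the large-subunit genes stood at a narrow range of distances. Over the 22 bound members the median was 308 bp upstream of the annotated 5′ end, with quartiles of 261 and 375 bp. All 22 lay upstream, from 32 bp at rpl-12 to 775 bp at rpl-43. Between 200 and 450 bp upstream stood 18 of 22 (81.8%), as did 12 of the 15 bound rps genes (80.0%), which encode the small-subunit proteins. Of the 521 other bound coding genes, 181 (34.7%) had their summit in that interval, with a median of 256 bp and quartiles of 151 and 496 bp. The interval was chosen after the distances were seen. In the pooled list, the 21 unbound members with a summit had a median of 293 bp upstream, and 13 of them (61.9%) lay at 200 to 450 bp, against 1065 of 4485 other unbound genes (23.7%).

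**Figure D3:**
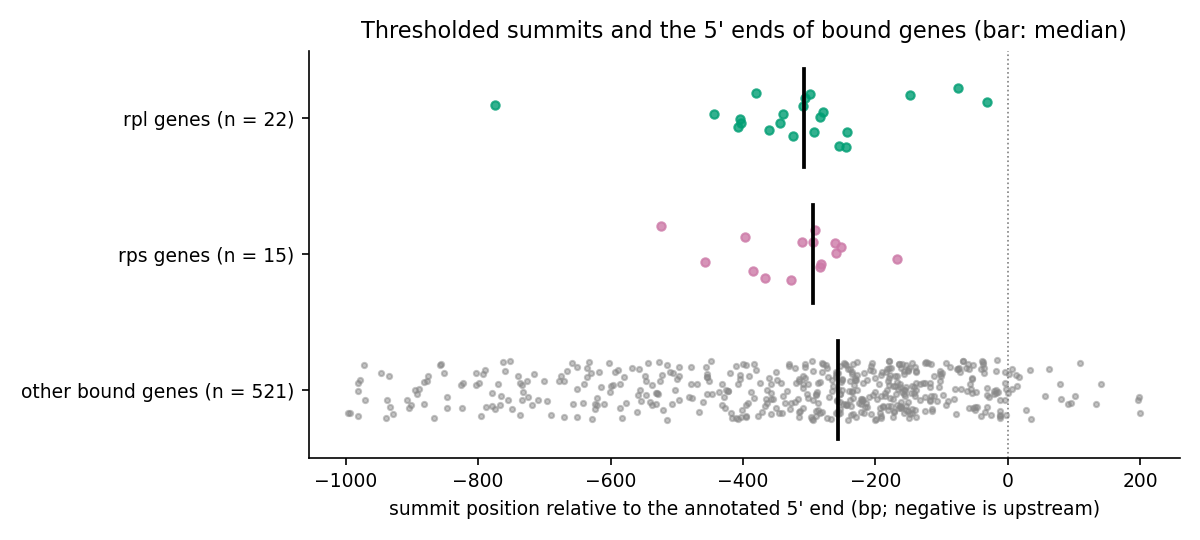
Position of the strongest thresholded summit relative to the annotated 5′ end (bp, negative is upstream) for 22 bound rpl genes, 15 bound rps genes and 521 other bound genes; each point is a gene and each bar a median. The rpl summits gather around 308 bp upstream, while those of the other genes spread from 996 bp upstream to 200 bp downstream.

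Many of these peaks lay between 2 genes. Of the 22 bound members, 15 (68.2%) shared their summit with the window of another coding gene, against 324 of 536 other bound genes (60.4%). Another ribosomal protein gene was the neighbour in 2 cases: rpl-36 shared with rps-14, and rpl-24.1 with rps-10. The peak of rpl-36 lay 403 bp upstream of it and 260 bp upstream of rps-14, and ndab-2 was 904 bp away. The peak of rpl-24.1 lay 243 bp upstream of it and 367 bp upstream of rps-10. The summit of rpl-12 was 361 bp from lin-54, which encodes the DNA-binding subunit of DREAM, a repressor complex of cell cycle genes. The rpl-9 summit was 274 bp from lpd-7, which encodes the worm Pescadillo, a factor that assembles the large subunit. In 8 of the 15 shared cases the large-subunit gene was nearer. The summits of rpl-7 and rpl-23 were 671 bp from rab-11.1, a small GTPase gene, and 908 bp from swp-1, those of rpl-5 and rpl-15 were 431 bp from col-38, a collagen gene, and 470 bp from K11H12.8, and that of rpl-7A was 179 bp from set-21. In the other 7 the neighbour was nearer: rps-14 beside rpl-36, Y17G9B.5 (163 bp) beside rpl-20, B0041.8 (168 bp) beside rpl-4, farl-11 (123 bp) beside rpl-33, ify-1 (153 bp), the securin gene, beside rpl-22, Y48B6A.1 (146 bp) beside rpl-43 and C14B9.10 (286 bp) beside rpl-21. ChIP-seq does not tell which of the genes a shared peak serves. The 7 summits in no other coding gene's window were those of rpl-3, rpl-6, rpl-11.2, rpl-14, rpl-24.2, rpl-35 and rpl-41.2. A noncoding gene lay within 250 bp of 5 of the 22 summits, and the share for other promoter summits is not given here.

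**Figure D4:**
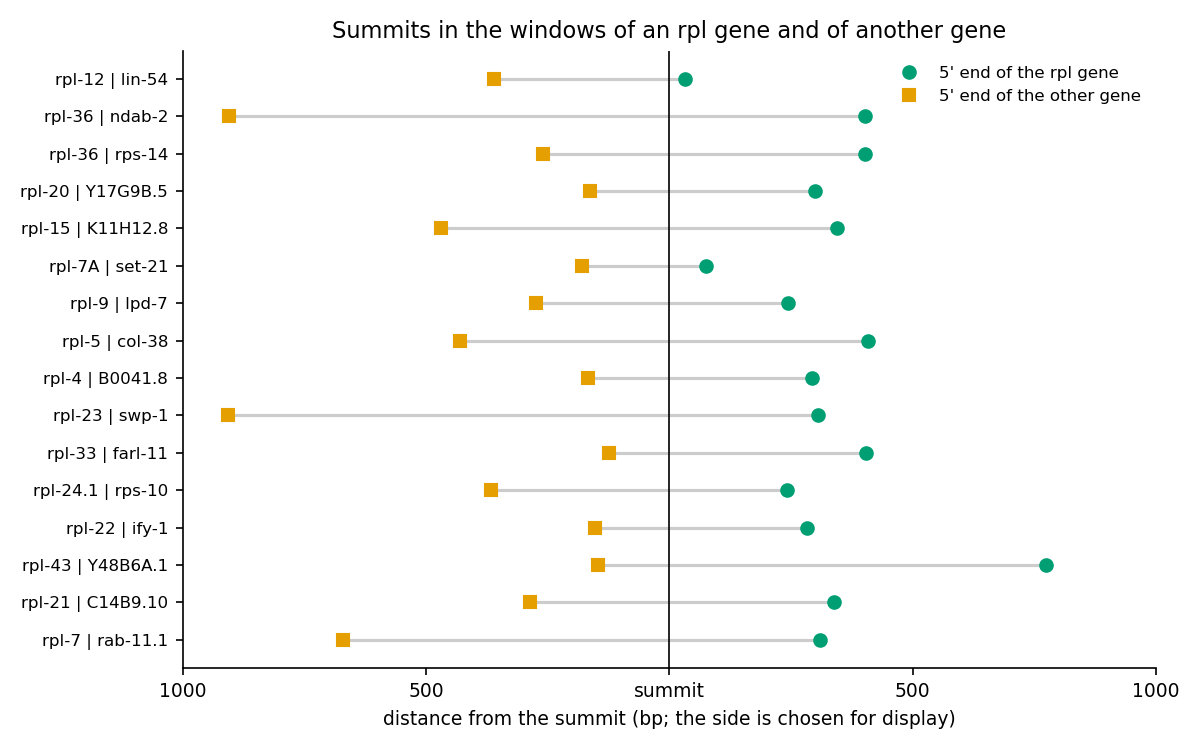
Distance in bp from each shared summit (vertical line) to the annotated 5′ end of the rpl gene (circle, right) and of each other coding gene whose window holds it (square, left); sides are chosen for display. In 7 of the 15 shared cases the other gene is nearer, with rpl-43 the farthest from its summit at 775 bp.

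Upstream neighbours of bound and unbound members were compared as counts, with no test and no count over all coding genes beside them. Whether the neighbours bear on binding was not tested. The nearest upstream gene pointed away in 15 of the 22 bound members and in 16 of the 28 unbound ones. The median gap to it was 612 bp for bound and 558 bp for unbound members. A gene on the same strand ended within 500 bp upstream of 0 bound and 5 unbound members. Of these upstream genes, glit-1 before rpl-25.1 and lias-1 before rpl-16 were themselves bound, with signals of 91.3 and 98.1. Those before rla-1, rpl-19 and rpl-27 were not. The median signal was 258 for the 22 peaks at bound members, 331 for the 15 peaks at bound rps genes, 2 of which are shared with members, and 116 for the 361 promoter peaks of neither family. Among the 330 strongest thresholded peaks stood 19 of the 22 member peaks (86.4%), 14 of the 15 rps peaks (93.3%) and 176 of the 361 (48.8%). High signal was thus seen at the genes of both subunits. A signal above 1000 was found at 3 member peaks, those of rpl-12, rpl-11.2 and rpl-36, at 4 rps peaks, including the 1 that rpl-36 shares with rps-14, and at 19 of the 361.

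The other ribosomal protein families were counted by the same rule, against 2.79% of all coding genes for thresholded and 25.4% for pooled summits. Of the 31 rps genes, 15 were bound (48.4%, interval 30.2 to 66.9), with the highest signals at rps-19 (4889), rps-12 (3535) and rps-15 (3311). These peaks were shared with hsr-9, ska-3 and F36A2.9. The neighbour was nearer at rps-19 (162 against 283 bp) and rps-12 (125 against 168 bp). The intervals of the large and the small subunit overlap almost wholly, and in the pooled list 28 of the 31 rps genes (90.3%) had a summit. Of the 41 mrpl genes, which encode the large subunit of the mitochondrial ribosome, 2 were bound (4.88%, interval 0.596 to 16.5), mrpl-28 with 105 and mrpl-12 with 91.6. The corresponding count for the mrps genes was 2 of 29 (6.90%, interval 0.846 to 22.8), mrps-21 with 418 and mrps-7 with 113. The mrps-21 summit lay 993 bp upstream, in a peak shared with the nearer genes F29B9.11 (309 bp) and jmjd-1.2 (481 bp). Both mitochondrial intervals lie below 30.0%, the lower bound for the rpl and rla genes, and both hold the share of all coding genes. This describes the thresholded counts and is no test between families, since the genes were chosen with earlier results known. In the pooled list, 24 mrpl genes (58.5%) and 12 mrps genes (41.4%) had a summit, between the share of all coding genes and the 86.0% of the rpl and rla genes. There the mrpl interval (42.1 to 73.7) overlapped that of the rpl and rla genes (73.3 to 94.2), and the mrps interval (23.5 to 61.1) did not. Of the 29 genes found from a list of symbols drawn up for ribosome assembly, 6 were bound (20.7%, interval 7.99 to 39.7), and 23 (79.3%) had a summit in the pooled list. They were lpd-7 (329, the peak shared with rpl-9), larp-1 (243), fib-1 for fibrillarin (154), eif-6, whose product keeps the subunits apart until assembly ends (115), nol-58 (111) and nol-56 (94.2). The list also holds larp-1 and ncl-1, which are regulators rather than assembly factors, and pes-1, imp-3 and nop-1, whose symbols recall assembly factors of other species. Without these 5, left out after the values were seen, 5 of 24 were bound (20.8%). The unbound remainder was dkc-1, grwd-1, lpd-6, ngp-1, nol-6, nol-9, nol-10, nol-14, nol-16, nst-1, pro-1, pro-2, pro-3, rbd-1, rrp-1, rrp-8, sbds-1, toe-1 and utp-20. Of ubq-2, ubl-1 and rack-1, of which ubq-2 and ubl-1 encode ribosomal proteins fused to ubiquitin or a relative of it and rack-1 a protein on the small subunit's head, ubl-1 was bound with 208 and ubq-2 with 109.6.

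The DNA under the summits was searched for 7 listed words, some of them known from earlier results of these data. None stood at a larger share of the members than of the other promoter summits, and for ACGCAG and GAGCGC the shares were close. Within 100 bp of the summit, on either strand, ACGCAG stood at 5 of 22 members (22.7%), 90 of 361 other promoter summits (24.9%) and 5.13% of all 19973 genes at a place of the same 201 bp length centred 300 bp upstream. CGAGAG stood at 3 of 22 (13.6%) against 105 of 361 (29.1%), and GAGCGC at 5 of 22 against 84 of 361 (23.3%). ACGCGC was found at 0 of the 22 members and at 83 of the 361 (23.0%), and GAGACGCA at 2 of 22 against 44 of 361 (12.2%). The TATA word TATAAA stood at 2 members (9.09%), 44 other promoter summits (12.2%) and 24.2% of the fixed places. The B box GTTCGANNC of tRNA genes stood at 0 members and 24 other promoter summits (6.65%). GAGACGCA ends in the first 5 bases of ACGCAG, so these counts are not separate. GC content over the same 201 bp was 42.7% ± 4.51 (SD, n = 22) at the members, 45.6% ± 7.15 (SD, n = 361) at other promoter summits and 34.4% ± 6.75 (SD, n = 19973) at the fixed places.

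A different pair of words was more frequent at the members. They were picked after the sequences were seen, as the 6-base and the 7-base word with the greatest excess of share at members over other promoter summits, so their shares at bound members are a description with no test. ACCGTA stood at 13 of the 22 bound members (59.1%), 3 of 13 rps summits that no member shares (23.1%), 54 of 361 other promoter summits (15.0%) and 6.07% of the fixed places. ACACTCG stood at 9 of 22 (40.9%), 1 of 13 (7.69%), 11 of 361 (3.05%) and 1.06%. At the strongest pooled summits of unbound members, which had no part in the choice, ACCGTA stood at 8 of 21 (38.1%) against 7.25% of other unbound genes, and ACACTCG at 3 of 21 (14.3%) against 1.47%.

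At several members the words stood in a fixed arrangement, CGAGTGT followed by any 1 base and then ACCGTA. It was seen in 5 of the 22 bound summits, in 1 of 13 rps summits that no member shares (7.69%) and in 3 of 361 other promoter summits (0.831%). Its words were chosen on the bound members and the 361, so these shares are a description. The nuclear genome held 30 copies, of which 28 (93.3%) lay in the promoter window of a coding gene. The share of the genome that these windows cover is not given here, and the words were picked at promoter summits. A copy lay in the window of 9 of the 50 large-subunit genes (18.0%), 6 of the 31 rps genes (19.4%) and 46 of all 19973 genes (0.230%), so 15 of the 46 genes with a copy encode a cytosolic ribosomal protein. Genes whose windows overlap can share a copy, as rpl-24.1 and rps-10 did, so these counts of genes are not counts of separate copies. The bound members with a copy were rpl-6, rpl-11.2, rpl-21, rpl-22 and rpl-24.1, and the unbound ones were rpl-1, rpl-19, rpl-29 and rpl-34. In these 9 windows the copy lay 216 to 421 bp upstream of the 5′ end. A thresholded summit was within 100 bp of the copy at 5 of the 9 members and a pooled summit at 8, rpl-19 being the exception. The arrangement was therefore present at members with and without a thresholded peak. A match of letters is not a measured site, and whether ZFP-2 or another protein contacts it was not tested. The words read on the strand of the gene at 8 of the 9 members and on the opposite strand at rpl-1. Strands are not given here for the other genes with a copy. A copy between genes that point apart reads on opposite strands for them. Copies with 13 bases on each side are shown for 6 of the 9 members, so that their flanks can be compared, with the words in capitals and on the strand of the words; those of rpl-1, rpl-19 and rpl-24.1 are not shown here. The intervals are chrX:2242947-2242986 (minus) for rpl-11.2, chrIII:8130505-8130544 (minus) for rpl-21, chrII:5055373-5055412 (plus) for rpl-22, chrIII:7208063-7208102 (plus) for rpl-6, chrIV:13881966-13882005 (plus) for rpl-29 and chrIV:12268554-12268593 (plus) for rpl-34.
rpl-11.2: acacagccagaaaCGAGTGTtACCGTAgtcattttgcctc
rpl-21: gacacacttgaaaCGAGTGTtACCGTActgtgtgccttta
rpl-22: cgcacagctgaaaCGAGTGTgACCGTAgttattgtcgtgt
rpl-6: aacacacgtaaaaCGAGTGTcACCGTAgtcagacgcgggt
rpl-29: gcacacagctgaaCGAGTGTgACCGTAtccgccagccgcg
rpl-34: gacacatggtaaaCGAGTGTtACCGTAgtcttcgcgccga

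At rpl-3, rpl-20 and rpl-15, whose summit sequences are printed further up, both words were present but apart from each other and not in this arrangement. At rpl-12 and rpl-36, which had higher signals, the word in capitals was ACGCAG, on the other strand for rpl-12 and on both strands for rpl-36. The pooled signal of bound members with a copy ran from 92.4 at rpl-21 to 1485 at rpl-11.2, and rpl-12, without one, had 4010.2. By chromosome, members were bound in 6 of 17 cases on I, where 4.31% of all coding genes were bound, 4 of 9 on II (2.78%), 7 of 9 on III (4.58%), 4 of 8 on IV (2.90%), 0 of 5 on V (1.40%) and 1 of 2 on X (1.90%). The order of the members' shares thus has III highest and V lowest, as has that of all coding genes, and the counts per chromosome are small.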

How the data were processed

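ZFP-2 ChIP-seq peak lists for 2 biological replicates of a single group were analysed. The deposited lists have no header; per the labels they are on ce10 and ce11, and the ce11 lists were used. The authors' signal per peak (column 7) and the summit offset of the deposited files were taken as given. Which peak caller, aligner and threshold of the irreproducible discovery rate were used is not given in the sources used here. The control was not used, and no read depth is known. Summits were matched to 29784 annotated 5′ ends of 19973 nuclear coding genes (Ensembl release 115). As 1 summit can count for several genes, genes are not independent, and the exact Clopper-Pearson 95% intervals cover counting error only. No p-value was computed. Summits matched between lists within 100 bp.

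Members, gene lists, words and the rule for named genes were chosen with earlier results of these data known. Named in detail are the 10 bound members with the highest signal, all rla genes, paralogues of the same number, the 3 weakest bound and the 3 strongest unbound members, and genes sharing a peak; other members are named for their role in the subunit or their sequence, after their values were seen. The words ACCGTA and ACACTCG, their arrangement and the 200 to 450 bp interval were chosen after seeing the data. Window matching was tested on simulated summits. Alternatives covered a stricter threshold, single replicates, other windows, rules tying peaks to genes, match distances and sequence windows. The tools were scipy 1.17.1, pandas 2.3.3, matplotlib 3.10.9 and numpy 2.4.6 under Python 3.11.15.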

Additional observations from a re-analysis of the deposited data

How the results depend on the processing

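The count of bound large-subunit genes was 22 and ranged from 21 to 23 with either replicate alone, losing rpl-7 or rpl-21 and, with replicate 1, gaining rpl-36.A and rpl-39. It was 19 with the 330 strongest peaks, 21 and 23 with the shorter and longer windows, and 15 with the nearest 5′ end only, where the rps count went from 15 to 7. With the 330 strongest peaks 313 of all coding genes were bound, against 558. The median summit position ranged from -310 to -299 bp with either replicate alone, against -308 bp. Of 37 alternatives, 34 stayed within the spread or within 1.5 times. No paired analysis was possible because the design has a single group. The unknown depth and the unused control limit what weak pooled signals at rla and other unbound genes can show.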

Other observations

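Genes outside the cytosolic ribosome whose windows held the arrangement of CGAGTGT, any 1 base and ACCGTA included ndk-1, a nucleoside diphosphate kinase, phb-1, a prohibitin, top-2, a topoisomerase, trap-2 and sec-61.A, of the machinery that moves new chains into the endoplasmic reticulum, and npp-3, a nuclear pore protein. They were named after the list was seen. Of the 30 copies in the nuclear genome, 9 (30.0%) lay within 100 bp of a thresholded summit and 17 (56.7%) within 100 bp of a pooled one. Of the 246 thresholded summits outside promoter windows, 0 had a copy within 100 bp. As 28 of the 30 copies lay in promoter windows, few could lie near such a summit, and no conclusion is drawn from this 0. The words were picked at thresholded summits of bound members, whose copies are among the 9. The shares of copies near summits are therefore partly fixed by that choice and are no measure of occupancy. At the strongest pooled summit of unbound genes that are not members, a copy was found for 13 of 4485 (0.290%), against 3 of 21 (14.3%) for unbound members.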
